A study of Mus musculus with 26 samples.

Results

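Cholesterol synthesis and its regulation were followed through 29 genes chosen by symbol: 19 enzymes from acetoacetyl-CoA to cholesterol, 5 genes of sterol sensing, and 5 genes of sterol transport and the liver X receptor (LXR). Of these, 27 were measured, among 16322 genes in tumours and 14131 in sorted cells. Nsdhl and Ebp, both on chromosome X, were not analysed here, which leaves 17 enzymes. The animals were KPC mice, which develop pancreatic ductal adenocarcinoma from engineered alleles switched on in the pancreas by a Cre recombinase. The labels give no alleles, age or sex. All animals carried tumours, so no group is a healthy control. Whole tumours came from 7 vehicle mice and 5 mice given GS9820, an inhibitor of the p110δ subunit of phosphoinositide 3-kinase (PI3K), for 14 days. Myeloid cells were sorted from spleens of vehicle and GS9820-treated tumour-bearing mice as PMN (polymorphonuclear cells, 3 and 4 libraries) and monocytes (3 and 4 libraries). The labels do not say whether each sorted library came from its own animal, so p-values measure the spread between these libraries, which may be partly technical.

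Cholesterol is built from acetyl-CoA through mevalonate and isoprenoid diphosphates to squalene, lanosterol and then cholesterol, and the isoprenoid branch also supplies the lipid anchors of small GTPases. When membrane sterol is low, SCAP escorts the SREBP transcription factors to the Golgi for cleavage, and they then switch on the enzymes. INSIG proteins hold SCAP back when sterol is plentiful. LXR senses oxysterols and works the other way, switching on the exporters ABCA1 and ABCG1 and the ubiquitin ligase MYLIP, which removes lipoprotein receptors. PI3K signalling through AKT and mTORC1 is known to promote SREBP activity, and PI3K p110δ is found mainly in white blood cells.

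The upstream sequences of 4 members are shown because the sterol regulatory element, the classic SREBP site, can be seen in one of them and because the others carry the largest enzyme difference between the cell types (Sc5d) and the opposite differences of the INSIG pair. Hmgcs1 came from a fixed rule, and Sc5d, Insig1 and Insig2 were chosen after their values were seen. The sequences are those of RefSeq (GRCm38.p6), read on the strand of the gene and ending just before its annotated start. Capitals mark every match, on either strand, to the sterol regulatory element (TCACNCCAC), the E-box (CACGTG), the NF-Y box (CCAAT) and the GC box (GGGCGG). For Insig1 the 49 bases nearest the RefSeq start were left off because GENCODE places them in the gene.
Hmgcs1, chr13:119690101-119690350, plus strand: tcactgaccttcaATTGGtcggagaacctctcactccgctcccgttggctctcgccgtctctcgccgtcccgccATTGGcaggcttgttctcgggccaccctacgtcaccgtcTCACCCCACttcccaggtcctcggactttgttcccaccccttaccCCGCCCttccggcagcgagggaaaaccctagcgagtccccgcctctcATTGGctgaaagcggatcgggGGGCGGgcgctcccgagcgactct
Sc5d, chr9:42264301-42264550, minus strand: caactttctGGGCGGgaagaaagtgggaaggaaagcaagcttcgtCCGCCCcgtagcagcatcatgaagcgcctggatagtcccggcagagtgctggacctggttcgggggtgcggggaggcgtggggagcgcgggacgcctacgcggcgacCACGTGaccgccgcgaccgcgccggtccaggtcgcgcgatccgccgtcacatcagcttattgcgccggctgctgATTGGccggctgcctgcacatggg
Insig1, chr5:28071162-28071362, plus strand: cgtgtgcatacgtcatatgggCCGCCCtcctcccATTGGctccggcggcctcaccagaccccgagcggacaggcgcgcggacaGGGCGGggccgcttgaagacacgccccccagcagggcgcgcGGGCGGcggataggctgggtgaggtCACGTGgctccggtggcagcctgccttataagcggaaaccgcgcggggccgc
Insig2, chr1:121332590-121332839, minus strand: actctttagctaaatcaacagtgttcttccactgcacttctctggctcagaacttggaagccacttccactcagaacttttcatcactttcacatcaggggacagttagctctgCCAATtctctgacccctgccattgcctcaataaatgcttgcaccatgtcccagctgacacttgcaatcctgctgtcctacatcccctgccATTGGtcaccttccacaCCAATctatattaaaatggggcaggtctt

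The table of promoters held 31 entries for 22 of the 27 measured members. Fdps, Fdft1, Sqle, Abcg1 and Stard4 had no entry and could not be scanned. In the 250 bases before the start, the sterol regulatory element was found in 1 of the 31, that of Hmgcs1 at -137 to -129 from the start, and in 1.05% of all 32851 promoters. The E-box was found in 6 of the 31 (6.02% of all promoters), including Sc5d at -98 to -93 and Insig1 at -101 to -96. The NF-Y box was found in 19 of the 31 (33.9% of all) and the GC box in 22 of the 31 (32.7% of all). Insig2 had 3 NF-Y boxes and none of the other motifs in this window. The LXR site, a direct repeat of AGGTCA with a gap of 4 bases, was found in 0 of the 31 and in 0.015% of all promoters. These counts describe letters in a short window, and no binding was measured here.

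All values below are deposited log2 expression values. Differences are given with their standard error (SE) and means with their standard deviation (SD). They were tested with limma, with Benjamini-Hochberg adjustment over 16296 tumour or 13968 sorted-cell genes and a threshold of adjusted p 0.05. The libraries of a set share nearly 1 distribution, so depth is unknown, and the values are not truly per length, so no level is compared between genes. As means, the markers of each label were higher in the cells so labelled. The mean of 6 monocyte markers was 9.31 to 11.0 in monocyte libraries and 6.59 to 7.55 in PMN libraries, and that of 8 neutrophil markers was 8.96 to 10.6 and 10.9 to 11.5. The neutrophil marker Mpo went the other way, at 9.52 to 11.3 in vehicle monocytes and 3.74 to 6.33 in vehicle PMN. Median Camp was 12.9 and 12.6. Ly6g was uneven among vehicle monocytes, at 4.18 to 8.39, against 9.28 to 9.74 in vehicle PMN. Acat2 has a near-identical neighbour in Acat3. Tm7sf2 overlaps Vps51 on the same strand, and Mvd, Ggps1, Fdft1, Lss, Cyp51, Srebf1 and Scap overlap a gene on the other strand. Whether counting used strand is not given in the sources used here, so the values of these members are uncertain to that extent.

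The clearest differences lay between the cell types. In vehicle mice, 13 of the 27 members differed between monocytes and PMN, where 60.1% of all genes tested did, so the members' share was below that of genes at large. Of the 13, 4 were higher in monocytes (32.8% of all genes) and 9 were lower (27.2% of all genes). The lower members included the sterol desaturase Sc5d, the geranylgeranyl diphosphate synthase Ggps1, the sensor Insig2 and 3 genes that LXR is known to control, Mylip, Abca1 and Abcg1. The groups did not overlap for 4 higher members (32.4% of all genes) and 9 lower ones (27.1% of all genes). Those that passed as higher were Dhcr7, which makes the last step to cholesterol, the sterol reductase Tm7sf2, Srebf1 and Insig1, whose groups overlapped. Scap did not overlap but missed the threshold.

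In GS9820-treated mice, whose libraries do not enter the vehicle contrast, 14 of the 27 members differed between the cell types (69.6% of all genes). There were 3 higher in monocytes and 11 lower, against 37.6% and 32.1% of all genes, and the groups did not overlap for those 3 (37.4% of all genes) and for 10 of the 11 (32.1% of all genes). The same direction passed the threshold in both contrasts for 12 members, which is 12 of the 13 and 12 of the 14, and 56.8% of all genes tested passed in both in the same direction. The sign was the same for 25 of the 27 members, against 92.3% of all genes, and the exceptions were Idi1 and Fdft1, which passed in neither. The 2 contrasts share 1 estimate of the spread.

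**Figure D1:**
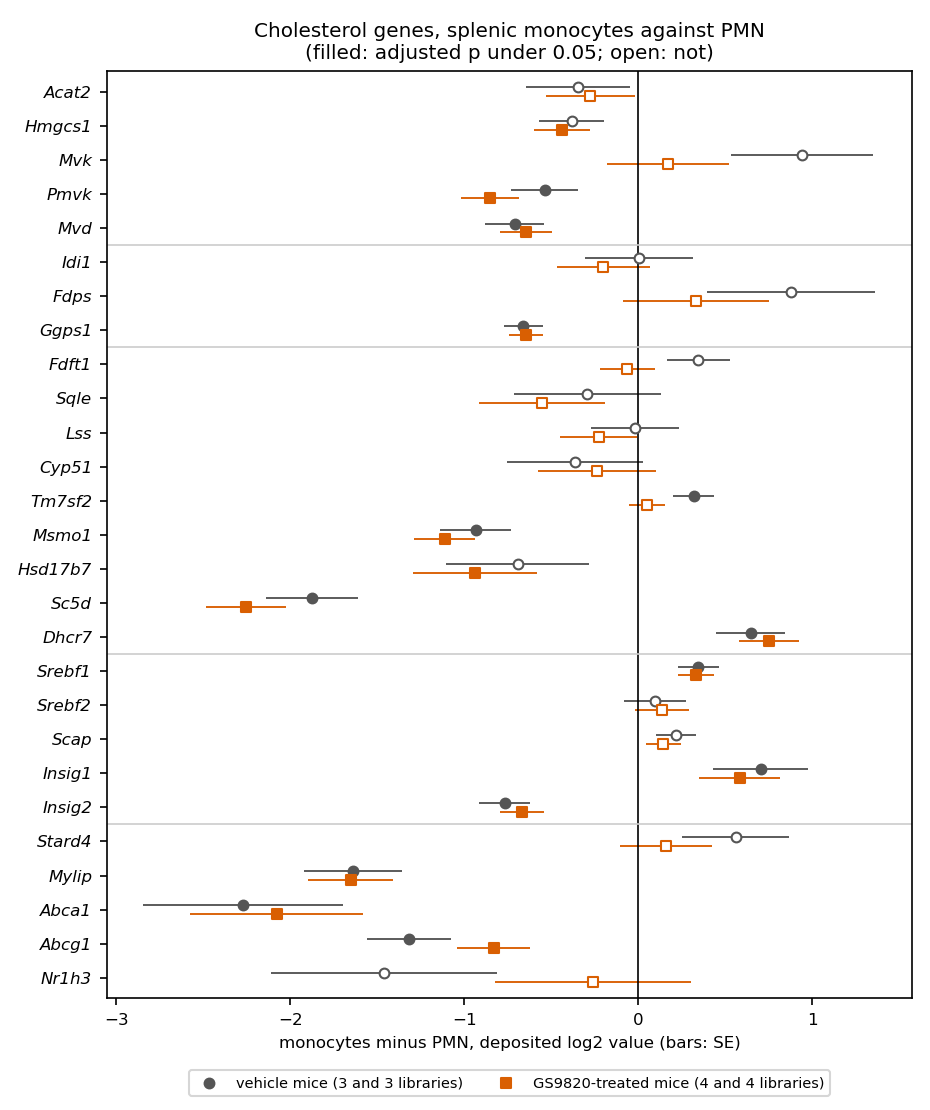
Difference between monocytes and PMN in deposited log2 value (horizontal axis, bars are SE) for the 27 measured members, from the top the mevalonate steps, the isoprenoid steps, the sterol steps, sterol sensing, and transport and LXR. Circles are vehicle mice and squares GS9820-treated mice, and filled symbols passed the threshold. Sc5d, Mylip and Abca1 lie farthest to the left in both, at -2.27 to -1.64.

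Among the 5 enzymes of the mevalonate steps, 2 were lower in monocytes of vehicle mice and 3 in those of treated mice, and none was higher. Mvd (ENSMUSG00000006517, chromosome 8, 122433601 to 122443422), which decarboxylates mevalonate diphosphate, read 5.63, 5.84 and 5.41 in vehicle monocytes and 6.13, 6.68 and 6.19 in vehicle PMN. In treated mice it read 5.94, 5.82, 5.96 and 5.96 in monocytes and 6.59, 6.73, 6.73 and 6.22 in PMN. Every monocyte library was below every PMN library of the same treatment. The difference was -0.71 ± 0.17 in vehicle and -0.65 ± 0.15 in treated mice (limma, adjusted p = 0.00321 and 0.00182).

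Pmvk (ENSMUSG00000027952, chromosome 3, 89454541 to 89469013) encodes the kinase before it in the pathway. Pmvk read 3.77, 4.00 and 3.65 in vehicle monocytes and 4.05, 4.61 and 4.36 in vehicle PMN, a difference of -0.54 ± 0.19 (limma, adjusted p = 0.0278). With GS9820 it read 3.82, 3.83, 3.84 and 3.91 in monocytes and 4.77, 5.13, 4.50 and 4.42 in PMN, a difference of -0.85 ± 0.17 (limma, adjusted p = 0.00054). The groups did not overlap under either treatment, yet the vehicle result was lost when PMN vehicle 2 or 3 or monocyte vehicle 1 or 3 was left out, with differences of -0.53 to -0.40 and adjusted p up to 0.11. Hmgcs1 (ENSMUSG00000093930, chromosome 13, 119690379 to 119708260), the synthase that makes HMG-CoA, was lower in treated monocytes at -0.44 ± 0.16 (limma, adjusted p = 0.0288) but not in vehicle monocytes at -0.38 ± 0.19 (adjusted p = 0.096). The Hmgcs1 result was lost without PMN treated 2 or 3 or monocyte treated 1 or 3, at -0.42 to -0.34 and adjusted p up to 0.0899. Acat2 and Mvk passed in neither contrast.

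Of the 3 isoprenoid enzymes, Ggps1 was lower in monocytes under both treatments. Ggps1 (ENSMUSG00000021302, chromosome 13, 14050659 to 14063488) makes the diphosphate that anchors small GTPases such as the Rab proteins to membranes. It read 4.43, 4.15 and 4.45 in vehicle monocytes and 5.05, 4.95 and 5.01 in vehicle PMN. Treated mice gave 4.35, 4.39, 4.42 and 4.46 in monocytes and 4.88, 5.14, 5.14 and 5.02 in PMN. The groups were far apart for their spread, and the difference of -0.66 ± 0.11 in vehicle mice was close to the -0.65 ± 0.10 in treated mice (limma, adjusted p = 0.000299 and 7.69e-05). Idi1 and Fdps, which supply its substrates, passed in neither contrast, and their differences ran from -0.20 to 0.88.

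The 9 measured enzymes of the sterol steps moved in both directions. In each contrast 4 of them passed the threshold, and 3 of these passed in both. Sc5d (ENSMUSG00000032018, chromosome 9, 42251595 to 42264256), which puts a double bond into the sterol ring late in the pathway, read 4.96, 5.47 and 4.51 in vehicle monocytes and 6.77, 7.36 and 6.42 in vehicle PMN. The treated libraries read 5.36, 4.995, 5.52 and 5.40 in monocytes and 7.33, 7.43, 7.86 and 7.66 in PMN. Every PMN library was above every monocyte library. Sc5d was 3.66-fold lower in vehicle monocytes, a difference of -1.87 ± 0.26, and 4.77-fold lower in treated monocytes, a difference of -2.25 ± 0.23 (limma, adjusted p = 6.98e-05 and 2.82e-06).

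Msmo1 (ENSMUSG00000031604, chromosome 8, 64718139 to 64733792), an oxygenase that removes methyl groups from the sterol ring, was also lower in monocytes. It read 4.95, 5.44 and 5.38 in vehicle monocytes against 6.36, 6.12 and 6.09 in vehicle PMN, and 4.96, 5.22, 5.48 and 5.71 in treated monocytes against 6.36, 6.84, 6.36 and 6.27 in treated PMN. The differences were -0.93 ± 0.20 and -1.11 ± 0.18 (limma, adjusted p = 0.0017 and 0.000113), without overlap of the groups.

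Dhcr7 (ENSMUSG00000058454, chromosome 7, 143823145 to 143848410), the reductase that completes cholesterol, went the opposite way from Sc5d, the enzyme just before it in one route. Dhcr7 read 2.82, 3.38 and 3.33 in vehicle monocytes and 2.71, 2.52 and 2.36 in vehicle PMN, and 3.10, 3.43, 3.33 and 3.57 in treated monocytes and 2.87, 2.45, 2.48 and 2.61 in treated PMN. Each monocyte library was above each PMN library of its treatment. The differences were 0.65 ± 0.20 and 0.75 ± 0.17 (limma, adjusted p = 0.0132 and 0.00171), and the vehicle result narrowly missed the threshold without monocyte vehicle 2, at 0.55 and adjusted p = 0.0512. Tm7sf2 was higher in vehicle monocytes by 0.32 ± 0.12 (adjusted p = 0.0323), lost its call without any 1 of the vehicle libraries except PMN vehicle 3 (0.29 to 0.33, adjusted p up to 0.0891), and did not differ past the threshold in treated mice (0.05 ± 0.10, adjusted p = 0.668). Hsd17b7 was lower in treated monocytes at -0.94 ± 0.36 (adjusted p = 0.0317). That call was lost without PMN treated 2 or 3 or monocyte treated 1, 2 or 4, at -0.96 to -0.82 and adjusted p up to 0.0838. Fdft1, Sqle, Lss and Cyp51, which carry the pathway from farnesyl diphosphate through squalene to the demethylation of lanosterol, passed in neither contrast, with differences of -0.55 to 0.35.

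The sterol sensors split between the 2 INSIG genes. Insig2 (ENSMUSG00000003721, chromosome 1, 121304353 to 121332589) read 3.64, 3.81 and 3.65 in vehicle monocytes and 4.53, 4.39 and 4.47 in vehicle PMN. In treated mice it read 3.73, 3.74, 3.80 and 3.89 in monocytes and 4.14, 4.75, 4.55 and 4.39 in PMN. Insig2 was lower in every monocyte library, at -0.77 ± 0.15 and -0.67 ± 0.13 (limma, adjusted p = 0.000668 and 0.00045). Insig1 (ENSMUSG00000045294, chromosome 5, 28071363 to 28078662), itself an SREBP target, had the opposite sign at 0.70 ± 0.27 and 0.58 ± 0.23 (limma, adjusted p = 0.0389 and 0.0404). The vehicle groups of Insig1 overlapped, at 5.13 to 6.35 in monocytes and 4.62 to 5.38 in PMN, whereas the treated groups did not, at 5.74 to 6.15 and 5.19 to 5.72.

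The Insig1 calls rested on single libraries. In vehicle mice the call was lost without PMN vehicle 1 or 3 or monocyte vehicle 2 or 3, with differences of 0.39 to 0.72 and adjusted p up to 0.169. In treated mice it was lost without PMN treated 1, 2 or 4 or any 1 of monocyte treated 2, 3 and 4, with differences of 0.50 to 0.60 and adjusted p up to 0.102. Srebf1, whose products drive mainly fatty acid synthesis, was higher in monocytes by 0.35 ± 0.12 and 0.33 ± 0.10 (limma, adjusted p = 0.0231 and 0.0112). The vehicle call of Srebf1 was lost without PMN vehicle 1 or monocyte vehicle 2 or 3, at 0.26 to 0.33 and adjusted p up to 0.0891. Srebf2, the main activator of the cholesterol enzymes, differed by 0.10 ± 0.18 and 0.14 ± 0.16 and Scap by 0.22 ± 0.12 and 0.14 ± 0.10, none past the threshold.

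Of the transport and LXR genes, the same 3 of 5 were lower in monocytes in both contrasts. Mylip (ENSMUSG00000038175, chromosome 13, 45389742 to 45412022) read 5.25, 4.72 and 4.51 in vehicle monocytes and 6.78, 5.93 and 6.69 in vehicle PMN. After GS9820 it read 4.43, 4.12, 4.97 and 4.71 in monocytes and 5.87, 6.04, 6.47 and 6.46 in PMN. Mylip was 3.11-fold lower in vehicle and 3.14-fold lower in treated monocytes, at -1.64 ± 0.28 and -1.65 ± 0.24 (limma, adjusted p = 0.000309 and 6.25e-05), without overlap.

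Abca1 (ENSMUSG00000015243, chromosome 4, 53030787 to 53159895), which loads cholesterol onto apolipoprotein A-I, read 3.09, 1.42 and 3.26 in vehicle monocytes and 5.55, 3.98 and 5.06 in vehicle PMN. Its libraries scattered widely, but the groups did not overlap, and the difference of -2.27 ± 0.57 passed the threshold (limma, adjusted p = 0.00427). In treated mice it was 2.10 to 2.52 in monocytes and 3.62 to 5.37 in PMN, a difference of -2.08 ± 0.50 (limma, adjusted p = 0.00232). Abcg1 (ENSMUSG00000024030, chromosome 17, 31057675 to 31117988), which exports cholesterol to high-density lipoprotein, read 5.80, 5.49 and 5.69 in vehicle monocytes and 7.14, 7.24 and 6.56 in vehicle PMN. The difference was -1.32 ± 0.24 there and -0.83 ± 0.21 in treated mice (limma, adjusted p = 0.000522 and 0.00348). Nr1h3, the gene of LXRα, differed by -1.46 ± 0.65 and -0.26 ± 0.56 (adjusted p = 0.0677 and 0.692). Stard4, a soluble sterol carrier, differed by 0.56 ± 0.31 and 0.16 ± 0.27 (adjusted p = 0.13 and 0.606).

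**Figure D2:**
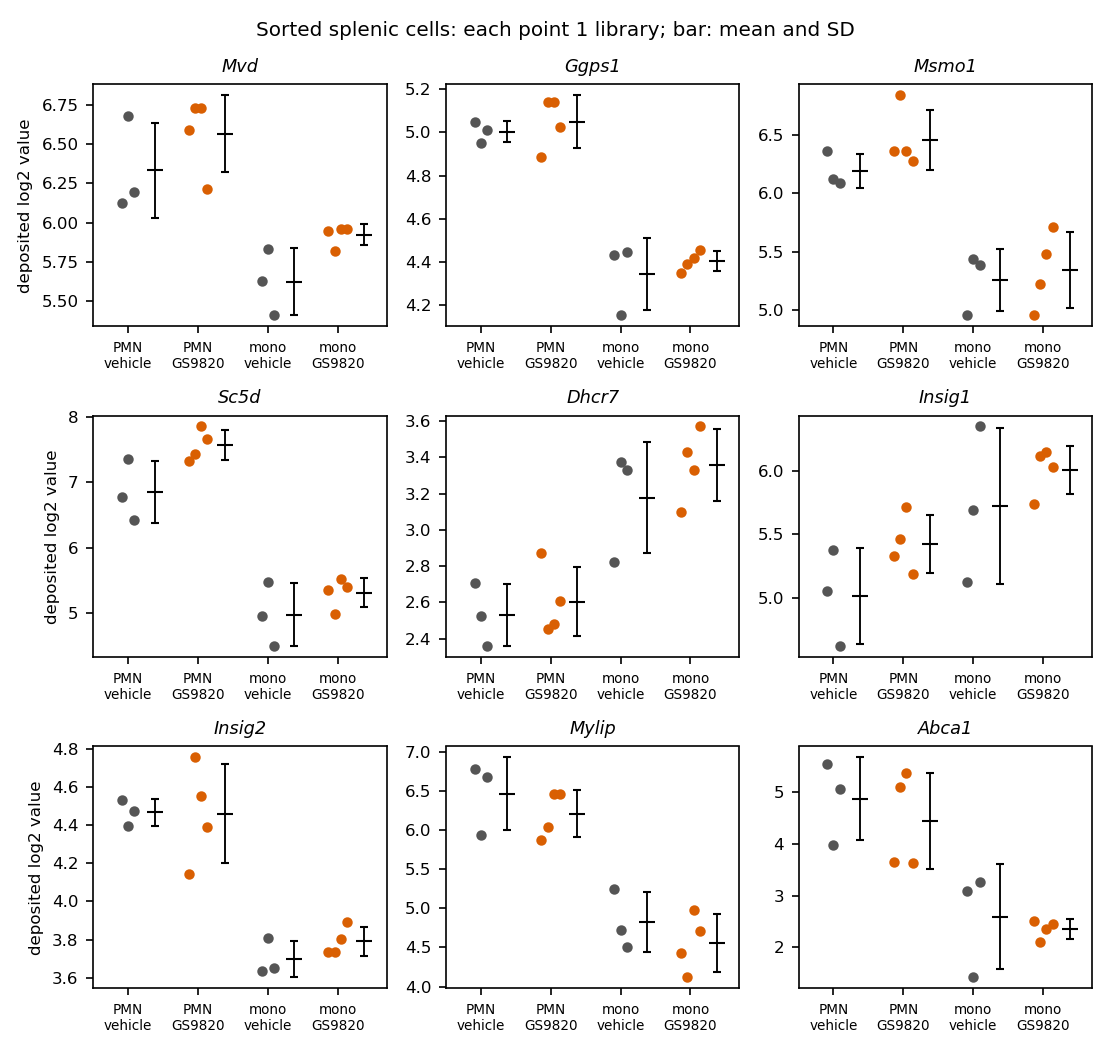
Deposited log2 values of 9 members in each sorted-cell library, with 3 libraries in each vehicle group (grey) and 4 in each GS9820 group (orange); the bar beside each group is its mean and SD. Msmo1, Sc5d, Ggps1, Insig2 and Mylip sit lower in every monocyte library than in any PMN library, and Dhcr7 sits higher within each treatment.

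Over all 27 members the median difference was -0.35 in vehicle and -0.26 in treated mice, beside 0.07 in both over all genes tested. With array quality weights the vehicle calls of Mvd, Pmvk and Tm7sf2 were lost, at -0.56, -0.35 and 0.36 (limma, adjusted p = 0.0691, 0.312 and 0.129). The vehicle median depended on single libraries and was 0.11 without monocyte vehicle 1, -0.01 without PMN vehicle 2 and -0.18 without monocyte vehicle 3. Monocyte libraries also differed from PMN libraries in proliferation transcripts, with a mean over 6 markers of 6.98 to 8.61 against 4.75 to 5.42, and in 4 B cell markers, at 2.69 to 4.21 against 4.73 to 5.92. In vehicle mice the macrophage marker C1qa had a median of 4.27 in PMN and 1.66 in monocytes, and C1qb 5.15 and 2.05. The dendritic cell marker Itgax had medians of 8.11 and 3.87. The medians of Mrc1, Cd209a and Zbtb46 were also higher in vehicle PMN. Those of Adgre1, Cd68, Csf1r and Flt3 were higher in vehicle monocytes. The part of all these transcripts in the differences above was not tested.

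Genes around the pathway were read in lists chosen with earlier results of these data known. The counts of every list stand against 32.8% of all genes higher and 27.2% lower in vehicle monocytes, and 37.6% and 32.1% in treated monocytes. Nothing particular to a list is read from its counts. Among 9 measured genes of fatty acid synthesis that SREBP is known to drive, 6 were higher and 2 lower in vehicle monocytes, and 7 and 2 in treated monocytes. Acaca, the carboxylase that commits acetyl-CoA to fatty acids, was higher by 1.18 ± 0.22 in vehicle mice, and the elongase gene Elovl6 by 2.04 ± 0.41 and 2.22 ± 0.35. Acss2, which makes acetyl-CoA from acetate, was lower at -1.61 ± 0.19 and -1.60 ± 0.16. The median of the list was 1.18 in vehicle and 0.95 in treated mice.

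Among 9 genes of SREBP processing and sterol-regulated degradation, 2 were higher and 4 lower in vehicle monocytes, and 2 and 3 in treated monocytes. The ubiquitin ligase gene Rnf145 was lower at -1.35 ± 0.13 in vehicle mice, and Erlin1, of the same degradation machinery, was higher by 0.78 ± 0.16. Among 14 genes of uptake, storage and intracellular transport, 6 were higher and 2 lower in vehicle monocytes and 7 and 3 in treated ones. Scarb1, the receptor for high-density lipoprotein, was higher by 2.15 ± 0.26 and 2.57 ± 0.22, and Gramd1a, a carrier of sterol from the plasma membrane, was lower at -1.20 ± 0.16 and -1.25 ± 0.14.

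Of 13 genes of the isoprenoid branches, 6 were higher and 1 lower in vehicle monocytes and 5 and 2 in treated ones. They included Rabggtb, which attaches geranylgeranyl groups to Rab proteins, at 0.81 ± 0.16 and 0.89 ± 0.14, the CAAX protease gene Rce1 at 0.54 ± 0.11 and 0.78 ± 0.09, and Nus1, of dolichol synthesis, at 0.56 ± 0.13 and 0.81 ± 0.11. Ggps1, which makes the substrate of RABGGTB, had the opposite sign. Of 8 genes of LXR, its partners and other targets, 2 were higher and 1 lower in vehicle monocytes and 3 and 1 in treated ones. Cd5l, an LXR target of macrophages, was lower at -2.26 ± 0.54 and -1.88 ± 0.47, whereas Smpdl3a, another LXR target, was higher by 0.93 ± 0.33 and 1.25 ± 0.29. Among 2 measured genes of oxysterol metabolism 1 was higher in vehicle and 2 in treated monocytes, including Hsd3b7 at 0.68 ± 0.18 and 0.62 ± 0.16. Of 3 late synthesis genes outside the chosen members, 1 was higher and 1 lower in vehicle monocytes, and 1 and 1 in treated ones. Lbr, a sterol reductase and lamin receptor, was lower at -0.995 ± 0.23 and -1.18 ± 0.20. The highest differences of this list were 1.09 in vehicle and 1.23 in treated mice.

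The inhibitor comparison asked how treatment moved these genes. In PMN none of the 27 members passed the limma threshold, and neither did any of the 13968 genes (0%). Without adjustment, 5 members had p under 0.05, where 3.08% of all genes did, and all 5 were higher in treated PMN. No count model could be run, since the values hold no counts. The 2 of smallest p were Sc5d and Stard4. Sc5d read 7.33, 7.43, 7.86 and 7.66 in treated PMN and 6.77, 7.36 and 6.42 in vehicle PMN, so the groups overlapped at PMN vehicle 2, and the difference was 0.72 ± 0.25 (limma, adjusted p = 1.0). Stard4 (ENSMUSG00000024378, chromosome 18, 33199355 to 33213862) read 5.59, 5.85, 5.83 and 5.42 in treated PMN and 5.14, 5.37 and 4.12 in vehicle PMN, without overlap, a difference of 0.80 ± 0.29 (limma, adjusted p = 1.0). The other 3 were Mvk at 0.98 ± 0.38, Idi1 at 0.63 ± 0.29 and Tm7sf2 at 0.27 ± 0.11.

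Most enzymes had a difference above 0 in treated PMN, but they are not independent values. PMN vehicle 3 held 11 of the 17 lowest vehicle values, and PMN treated 2 held 12 of the 17 highest treated values. The difference was above 0 for 16 of 17 enzymes, against 50.8% of all genes, and Acat2 was the exception at -0.04 ± 0.28. Their median difference was 0.33, beside 0.00 over all genes, and the count of enzymes above 0 stayed between 15 and 17 when each PMN library was left out. The mean of the 17 enzymes was 4.41, 4.83 and 4.30 in vehicle PMN and 4.79, 5.07, 4.99 and 4.72 in treated PMN, so the groups overlapped at PMN vehicle 2. In 3 members, Cyp51, Tm7sf2 and Stard4, every treated library was above every vehicle library, as were 1.78% of all genes. The LXR side had the other sign, with Mylip at -0.26 ± 0.26, Abca1 at -0.43 ± 0.54, Abcg1 at -0.38 ± 0.23 and Nr1h3 at -0.86 ± 0.61, none near the threshold. In these libraries the mean of 4 measured erythroid markers was 5.43 to 7.99 in vehicle and 2.92 to 4.94 in treated PMN, without overlap, and its part in the enzyme values was not tested. For 17 of the 27 members the 95% confidence interval of the difference lay within 1 log2 unit on either side of 0.

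In monocytes, likewise, no member and no gene passed the threshold (0%), and 0 members had an unadjusted p under 0.05, where 2.4% of all genes did. The 2 of smallest p were Mvd and Cyp51. Mvd read 5.94, 5.82, 5.96 and 5.96 in treated and 5.63, 5.84 and 5.41 in vehicle monocytes, a difference of 0.30 ± 0.16 (limma, adjusted p = 0.996). Cyp51 (ENSMUSG00000001467, chromosome 5, 4081145 to 4104746), the lanosterol demethylase, read 3.93, 4.63, 4.41 and 5.36 in treated and 3.05, 4.17 and 4.73 in vehicle monocytes, a difference of 0.60 ± 0.37 (limma, adjusted p = 0.996). Both genes overlapped between the groups. The difference was above 0 for 14 of 17 enzymes, against 47.2% of all genes, with a median of 0.18, and for 11 to 15 of them when each library was left out. With array quality weights it was above 0 for 7 of the 17 enzymes. As in PMN, the enzymes are not independent values. The enzyme mean was 4.07, 4.61 and 4.21 in vehicle and 4.27, 4.41, 4.52 and 4.70 in treated monocytes, and the groups overlapped. The 95% confidence intervals of 19 of the 27 members lay within 1 log2 unit of 0.

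The treatment differences of PMN and monocytes were compared with an interaction term. None of the 27 members and no gene (0%) passed, and 0 members had an unadjusted p under 0.05 (1.93% of all genes). The members of smallest p were Tm7sf2, whose treatment difference was lower in monocytes at -0.27 ± 0.16, and Fdft1, the squalene synthase gene, at -0.41 ± 0.24 (limma, adjusted p = 0.9998 for both). Tm7sf2 read 4.53, 4.63, 4.47 and 4.42 in treated and 4.18, 4.23 and 4.33 in vehicle PMN, but 4.66, 4.41, 4.44 and 4.75 in treated and 4.54, 4.59 and 4.56 in vehicle monocytes. Fdft1 read 4.53, 5.17, 4.81 and 4.50 in treated and 4.37, 4.52 and 4.36 in vehicle PMN, and 4.57, 4.62, 4.84 and 4.73 in treated and 4.47, 4.81 and 5.01 in vehicle monocytes. In both genes the treated and vehicle monocytes overlapped. The intervals of 16 of the 27 members for this term lay within 1 log2 unit of 0, and those of the other 11 reached beyond it.

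**Figure D3:**
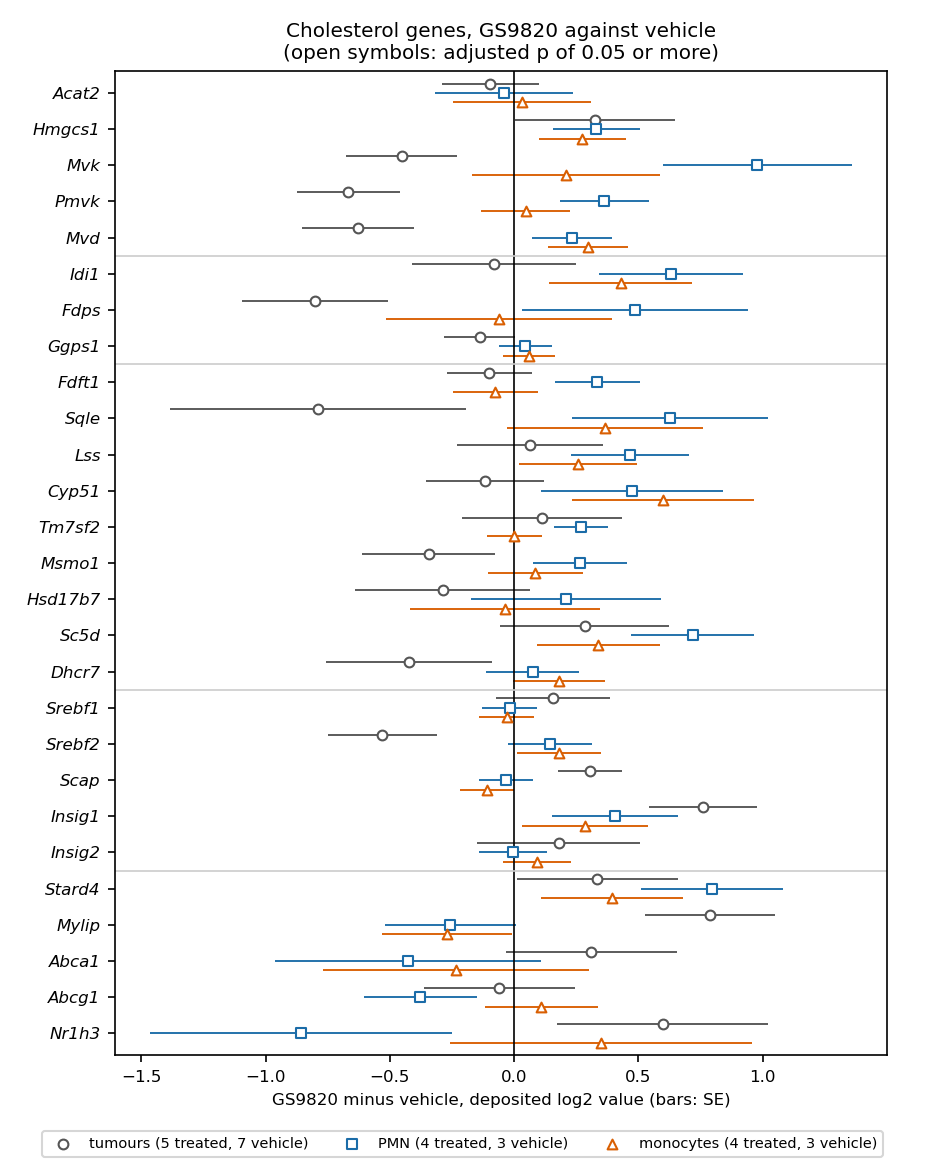
Difference between GS9820 and vehicle in deposited log2 value (horizontal axis, bars are SE) for the 27 measured members in tumours (circles), PMN (squares) and monocytes (triangles), in the same order of roles. All symbols are open because no member passed the threshold. In PMN 16 of the 17 enzymes lie to the right of 0, in monocytes 14 and in tumours 4.

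Within a group the enzymes tended to be high or low in the same libraries. In each sorted group 1 library held the highest value for 12 of the 17 enzymes: PMN vehicle 2, PMN treated 2, monocyte vehicle 2 and monocyte treated 4. In tumours, vehicle tumour 5 held 10 of the 17 highest vehicle values, treated tumour 1 held 9 of the 17 highest treated values, and treated tumour 2 held 15 of the 17 lowest. The 17 enzymes are therefore not 17 independent values when they are counted by the sign of a difference.

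**Figure D4:**
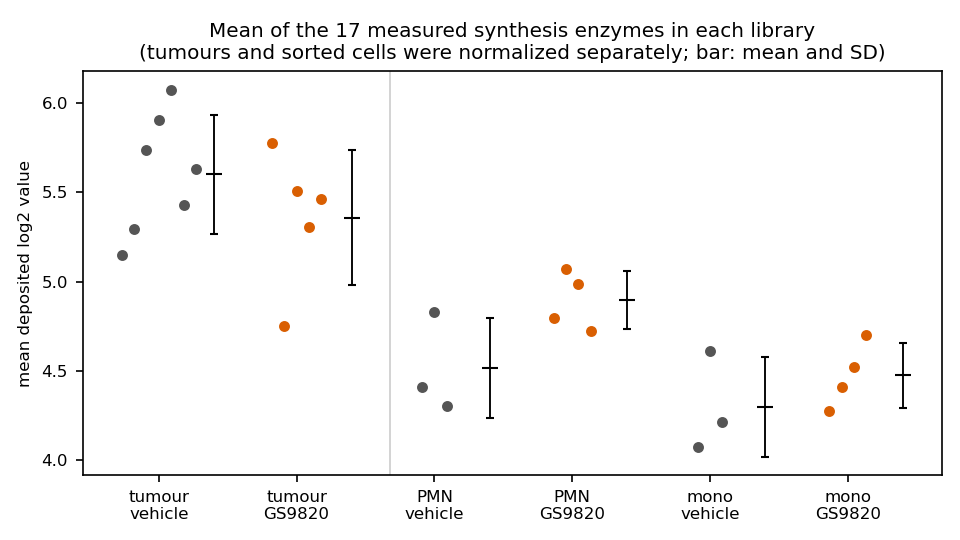
Mean deposited log2 value of the 17 measured synthesis enzymes in each library (points, grey for vehicle and orange for GS9820), with the mean and SD of each group beside it. Tumours (left of the line) and sorted cells were normalized separately. The treated and vehicle points overlap in tumours, PMN and monocytes.

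In whole tumours none of the 27 members passed the threshold between treated and vehicle mice, where 2.2% of all genes did. Less RNA of a gene in a tumour can mean fewer cells that make it or less RNA in each, and these cannot be told apart here. An unadjusted p under 0.05 was reached by 7 members, where 24.4% of all genes reached it. Pmvk, Mvd, Fdps and Srebf2 were on the lower side and Scap, Insig1 and Mylip on the higher side. The treated and vehicle tumours overlapped in all 27 members, while 0.951% of all genes were higher and 1.86% lower without overlap.

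Insig1 had the smallest p. It read 8.21, 6.94, 7.31, 7.44 and 7.44 in treated tumours and ran from 6.30 through a median of 6.63 to 7.30 in the 7 vehicle tumours. Only treated tumour 2 lay within the vehicle range, which reached upwards through vehicle tumour 5. The means were 7.47 ± 0.46 (SD, n = 5) and 6.71 ± 0.31 (SD, n = 7), and the difference of 0.76 ± 0.22 did not pass the threshold (limma, adjusted p = 0.0737). Pmvk read 4.91, 4.08, 4.71, 4.47 and 4.48 in treated tumours and 4.78 to 5.79 with a median of 5.04 in vehicle tumours. Treated tumour 1 was the 1 treated value above the lowest vehicle value. The means were 4.53 ± 0.31 (SD, n = 5) and 5.20 ± 0.37 (SD, n = 7), a difference of -0.67 ± 0.21 (limma, adjusted p = 0.088). Without vehicle tumour 5 both passed, Insig1 at 0.86 and Pmvk at -0.74 (limma, adjusted p = 0.0258 and 0.0428).

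Vehicle tumour 5 weighed on the whole comparison. The number of genes past the threshold was 359 with all tumours and 1690 without it, and it was 0 without treated tumour 4 and 31 without treated tumour 2. With array quality weights 2764 genes passed, among them 6 members: Mvk, Pmvk and Srebf2 as lower and Scap, Insig1 and Mylip as higher. The mean of 5 measured neutrophil markers was 7.58 in vehicle tumour 5 and 1.42 to 5.15 in the other 11 tumours. Markers of other cells moved with the groups, although the groups overlapped in each set. The mean of 8 acinar markers was 7.20 to 11.7 in treated and 3.65 to 11.5 in vehicle tumours, and that of 6 islet markers was 6.07 to 9.49 and 0.00 to 7.62. The mean of 4 measured adipocyte markers ran from 3.14 to 5.90 in 4 treated tumours and was 0.14 in treated tumour 2. Among vehicle tumours it was highest in number 4, at 3.71, and lay between -0.46 and 2.02 in the remaining 6. The mean of 6 proliferation markers lay between 6.09 and 6.78 in 6 vehicle tumours, with vehicle tumour 5 lower at 4.82. It was 6.36 in treated tumour 3, and the remaining 4 treated libraries had 4.62 to 5.30. The mean of 5 measured hepatocyte markers was 5.80 and 11.8 in treated tumours 1 and 3, 6.04 in vehicle tumour 4 and 0.28 to 2.82 in the others. The part of these cells and of proliferation in the member values was not tested, but without those 3 tumours 223 genes and again 0 members passed the threshold.

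By role, 4 of the 5 mevalonate enzymes, 3 of 3 isoprenoid enzymes and 6 of 9 sterol enzymes had a difference below 0 in tumours, where 54.7% of all genes did. Mvd was -0.63 ± 0.23 (adjusted p = 0.122) and Fdps, the farnesyl diphosphate synthase gene, -0.80 ± 0.29 (adjusted p = 0.126). The median over the 17 enzymes was -0.14, beside -0.06 over all genes. The enzyme mean was 5.77, 4.75, 5.51, 5.30 and 5.46 in treated tumours and 5.15 to 6.08 in vehicle tumours, so treated tumour 2 lay below and the rest within the vehicle range. The count of enzymes above 0 was 4, and it became 7 without treated tumour 2 and 2 without vehicle tumour 1.

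The sensors leaned the other way, as did the transport and LXR genes, which include the sterol carrier Stard4. In each 4 of 5 were above 0, against 45.3% of all genes. Srebf2 was the exception among the sensors at -0.53 ± 0.22 (adjusted p = 0.164), and Scap was 0.31 ± 0.13 (adjusted p = 0.167). Mylip was 0.79 ± 0.26 (adjusted p = 0.103) and Nr1h3 0.60 ± 0.42, while Abcg1 was -0.06 ± 0.30. For 13 of the 27 members the 95% confidence interval lay within 1 log2 unit of 0, and the widest SE was that of Sqle, the squalene epoxidase gene, at 0.59.

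**Figure D5:**
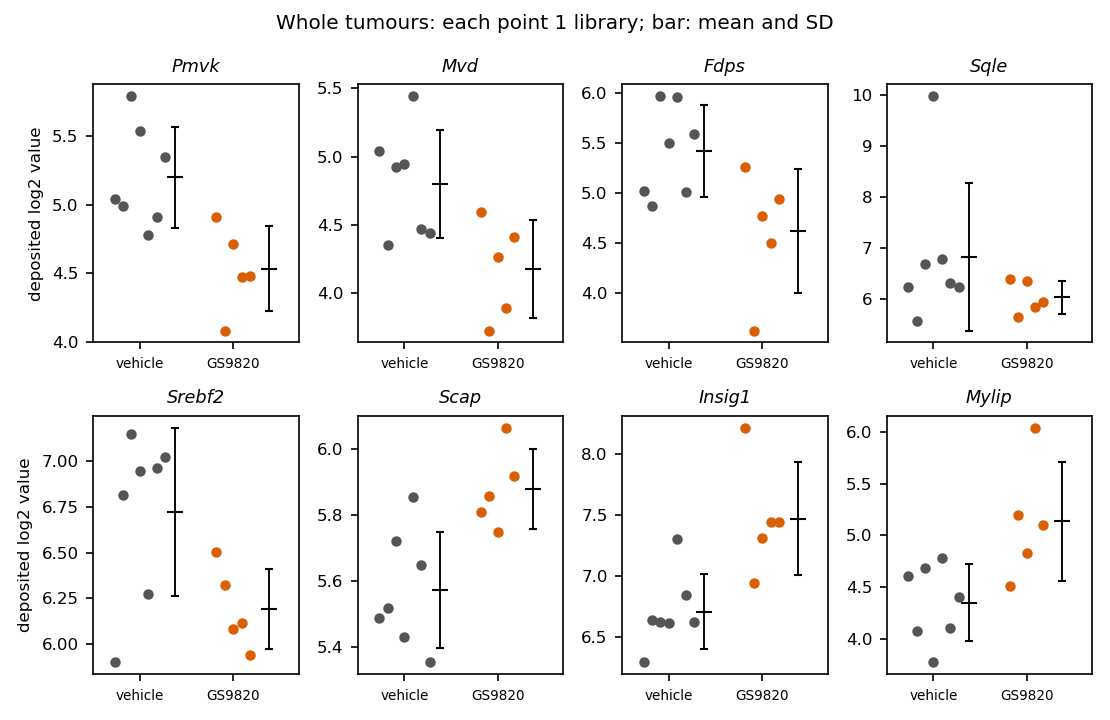
Deposited log2 values of 8 members in 7 vehicle (grey) and 5 GS9820-treated tumours (orange), with the mean and SD of each group beside it. These are the 7 members with an unadjusted p under 0.05 and Sqle. In each of them the treated and vehicle tumours overlap, and for Sqle 1 vehicle tumour stands at 9.97, above the other 11.

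Among the surrounding lists, 3 genes passed the threshold in tumours, all higher with treatment. Pltp, the phospholipid transfer protein gene and an LXR target, rose by 1.80 ± 0.39 (limma, adjusted p = 0.0373). Cyp27a1, which makes an oxysterol that activates LXR, rose by 1.62 ± 0.35 (adjusted p = 0.0369), and Acacb, the mitochondrial acetyl-CoA carboxylase gene, by 1.61 ± 0.34 (adjusted p = 0.0351). All 3 calls of Pltp, Cyp27a1 and Acacb were lost without vehicle tumour 2, 3 or 4 or treated tumour 2, 4 or 5, with adjusted p up to 0.11, and no gene at all passed without treated tumour 4. Pltp and Cyp27a1 were also lost without vehicle tumour 7, and Acacb without vehicle tumour 1 or treated tumour 1. Without the 3 tumours of high hepatocyte transcripts, Pltp passed at 2.26 (limma, adjusted p = 0.035), and Cyp27a1 at 1.35 and Acacb at 1.60 did not (adjusted p = 0.0759 and 0.105). Adipocyte markers were higher in the same comparison, with median Adipoq at 3.91 in treated and -1.40 in vehicle tumours and median Plin1 at 2.08 and -1.03, and their part in these 3 genes was not tested. The 3 genes were 1 of 10 genes in the LXR list, 1 of 5 in the oxysterol list and 1 of 11 in the fatty acid list, where 0.878% of all genes rose. No gene of the SREBP processing, isoprenoid branch, uptake and transport, or late synthesis lists passed in tumours. In PMN and in monocytes no gene of any list passed.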

How the data were processed

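Whole tumours (12 libraries) and sorted splenic myeloid cells (14 libraries) were analysed from the values in the deposited files; no reads were aligned or counted. Per the labels' protocols, tumour libraries were stranded, made from total RNA after removal of ribosomal RNA and run on 1 lane, and 4 lanes carried the sorted-cell libraries, for which 2 different kits were in use. Which kit served which library is not given in the sources used here. Per the submitters' processing notes TopHat2, STAR and limma were used with the mouse assembly mm10, without versions or roles. The authors deposited log2 values under a header that reads log2RPKM. Within a set the reversed values sum to 1552394 to 1552449 in tumours and 1429080 to 1430327 in sorted cells, so counts and depth cannot be recovered. Precision is therefore judged from the spread between libraries.

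Symbols and coordinates came from GENCODE M21 (GRCm38), which named 16039 of 16322 tumour genes and 13886 of 14131 sorted-cell genes. The files hold 0 genes of chromosomes X and Y. A gene was tested if its value reached 0 in 5 or more tumours, or in 3 or more libraries of sorted cells. The test was limma-trend (limma 3.58.1, R 4.3.3; two-sided), adjusted by Benjamini-Hochberg within each of 6 comparisons at a threshold of 0.05. Tumours formed 1 fit, and sorted cells another with 4 groups. The scripts were tested on simulated data. Python 3.11.15 with pandas 2.3.3 and matplotlib 3.10.9 was used for summaries and figures.

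The members and all lists were chosen with earlier results of these data known. Values in every library are given for members past the threshold, at most the 8 of smallest adjusted p in a comparison, or for the 2 of smallest p where none passed. From each surrounding list at most 3 genes that passed are named, those of smallest adjusted p; some genes that the rule would name are not reported here. Promoters were to be shown for members past the threshold that hold the sterol regulatory element. The alternatives were no filter, a filter at a value of 2, log2 of the reversed value plus 1, centring on the library median, eBayes without the trend, array quality weights, a block of the replicate number, each library left out, tumours without the 3 of high hepatocyte transcripts, and each cell type fitted alone. Groups share replicate numbers, but the labels do not tie them to animals and not every pair of libraries with the same number deviated together, so the numbers were not taken as pairs.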

Additional observations from a re-analysis of the deposited data

Results flagged for a closer look

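Of 108 groups of member values with 4 to 10 libraries, 9 held 1 library that stood apart from the rest of its group by Dixon's test at the 95% level, which chance alone does in about 1 in 20 groups. In vehicle tumours these were Ggps1 at 5.84 in vehicle tumour 3 (next value 5.55), Sqle at 9.97 in vehicle tumour 4 (next 6.77) and Sc5d at 7.32 in vehicle tumour 5 (next 6.04). In treated tumours Sc5d was low in treated tumour 2 at 5.13 (next 6.35), and treated tumour 1 had a high Stard4 at 7.61 (next 6.31) and a low Abca1 at 6.64 (next 8.15). In sorted cells Msmo1 was high in PMN treated 2 at 6.84 (next 6.36), Srebf1 was high in PMN treated 3 at 5.91 (next 5.64) and Mvd was low in monocyte treated 2 at 5.82 (next 5.94).

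For 6 pairs of a member and 2 tissues, every treated library lay on one side of the vehicle mean in tumours and on the other side in a sorted cell type. The difference between the tissues was not tested, because tumours and sorted cells were normalized apart. Pmvk was -0.67 in tumours and 0.36 in PMN, and 0.05 in monocytes. Mvd was -0.63 in tumours and 0.30 in monocytes. Sqle was -0.79 in tumours and 0.63 in PMN. Srebf2 was -0.53 in tumours and 0.18 in monocytes, and Scap was 0.31 in tumours and -0.11 in monocytes. None of these differences passed the threshold in its own comparison.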

How the results depend on the processing

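Filters, the pseudocount, centring and eBayes without the trend kept the summaries and the members followed one by one on their side of the threshold. So did fits of a single cell type, which were run only for the treatment comparisons in PMN and in monocytes. Array quality weights moved the tumour result from 359 to 2764 genes and from 0 to 6 members. They also moved the median difference of members between monocytes and PMN in vehicle mice from -0.35 to 0.0085, and that of the difference of treatment effects from -0.07 to -0.24. The count of enzymes above 0 with treatment in monocytes fell from 14 to 7 under these weights. Without treated tumours 1 and 3 and vehicle tumour 4, 223 genes passed in tumours. With each tumour left out, 0 to 1690 genes and 0 to 2 members passed. With each library left out, the vehicle median between the cell types ran from -0.47 to 0.11. No member followed one by one changed sign, but the medians of members did. The vehicle median did so as given above, the tumour median (-0.08) reached 0.04 without treated tumour 2, and that of the difference of treatment effects reached 0.01 without PMN vehicle 3. The causes were not tested. Whether depth limits a statement here could not be judged, since it is unknown.

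The shared replicate numbers were checked as pairs. Deviations of libraries with the same number correlated at -0.18 to 0.26 in tumours, 0.02 to 0.05 in PMN and -0.44 to 0.22 in monocytes. Between the cell types the range was 0.09 to 0.46 in vehicle mice, where 3 of 3 numbers correlated best with their own, and -0.22 to 0.45 in treated mice. The block fit of tumours left out vehicle tumours 6 and 7, whose numbers have no treated counterpart. With it 171 tumour genes passed, and the block and the loss of these tumours cannot be told apart. The block fits of treatment in PMN and in monocytes left out treated library 4. Between the cell types the block kept all libraries, and the differences were unchanged. The vehicle calls of Tm7sf2 and Insig1 missed the threshold under the block (limma, adjusted p = 0.0732 and 0.0662), as did the treated calls of Hsd17b7 and Insig1 (limma, adjusted p = 0.0796 and 0.0676). The tumour calls of Acacb, Cyp27a1 and Pltp missed it too, at 1.90, 1.70 and 2.09 (adjusted p = 0.0607, 0.118 and 0.0766).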
